A study of Homo sapiens with 19 samples.

Results

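Across the genome of 786-O cells, 743 sites were called as bound both by re-expressed HIF-1α and by the HIF-2α that the cells make themselves. A site is a window from the list of HIF-1α peaks of the HIF-1α re-expressing cells, and it was taken when 1 base or more also belonged to a window from the list of HIF-2α peaks of the control cells. The 743 sites were 14.4% of the 5147 HIF-1α sites (95% Wilson interval 13.5 to 15.4), and they met 747 windows, or 43.5%, of the 1719 endogenous HIF-2α sites (41.1 to 45.8). Since these 2 lists chose the sites, both shares are a description and not a finding. Below, these sites are called the shared sites, and they are set beside the 4404 HIF-1α sites that met no endogenous HIF-2α window and the 972 endogenous HIF-2α sites that met no HIF-1α window.

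786-O is an established line of clear cell renal carcinoma in which VHL is defective, and HIF-α subunits thus escape degradation in every cell of the study. The line makes full-length HIF-2α and only truncated transcripts of HIF1A. Pools of cells were transduced with the empty lentiviral vector pRRL (control cells), with pRRL-HIF-1a (HIF-1α re-expressing cells) or with pRRL-HIF-2a (HIF-2α overexpressing cells), and pools rather than single clones were studied. ChIP-seq gave 7 lists of 1350 to 6572 windows, with 1 library per list. HIF-2α and HIF-1β each had a list in every pool, and HIF-1α in the HIF-1α re-expressing cells alone. The HIF-1α windows thus have no list of the control cells to be set beside. RNA-seq gave 3 libraries per pool.

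HIF-1α and HIF-2α are alternative partners of HIF-1β, the product of ARNT, and each pair binds DNA as a heterodimer at the hypoxia response element (HRE), whose core reads ACGTG or GCGTG. In cells with VHL and oxygen, prolyl hydroxylases mark the α subunits for VHL and destruction. HIF-1α is best known for driving glycolytic enzymes, whereas HIF-2α dominates in clear cell renal carcinoma, where it drives growth and vascular genes. AP-1 is a separate dimer of FOS and JUN family proteins that binds the motif TGACTCA or its reverse complement, TGAGTCA, and is abundant at enhancers.

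The sequences below show the centres of 9 shared sites, so that the binding motifs can be seen in place. Each line holds the window midpoint with 100 bases to either side, from the plus strand of GRCh37 (hg19). Capitals mark HRE cores (ACGTG and GCGTG, or CACGT and CACGC where the core lies on the other strand) and AP-1 motifs (TGACTCA or TGAGTCA). The first 7 lines are sites of textbook HIF or AP-1 genes, taken from those whose core lay closest to the midpoint. They include glucose handling (PGK1, SLC2A1), a lipid droplet protein (HILPDA), a sterol sensor (INSIG2), the host gene of the hypoxia-induced miR-210 (MIR210HG), a collagen chain (COL5A1) and an AP-1 subunit (FOSL2).
PGK1, chrX:77359450-77359650: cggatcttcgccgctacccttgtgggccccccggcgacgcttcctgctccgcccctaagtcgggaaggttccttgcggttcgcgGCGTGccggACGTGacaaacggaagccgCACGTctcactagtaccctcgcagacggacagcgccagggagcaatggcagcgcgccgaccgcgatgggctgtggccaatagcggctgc
SLC2A1, chr1:43407686-43407886: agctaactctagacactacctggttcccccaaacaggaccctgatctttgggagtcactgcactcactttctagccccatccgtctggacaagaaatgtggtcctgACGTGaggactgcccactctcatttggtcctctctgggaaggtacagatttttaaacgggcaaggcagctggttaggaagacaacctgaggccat
HILPDA, chr7:128096119-128096319: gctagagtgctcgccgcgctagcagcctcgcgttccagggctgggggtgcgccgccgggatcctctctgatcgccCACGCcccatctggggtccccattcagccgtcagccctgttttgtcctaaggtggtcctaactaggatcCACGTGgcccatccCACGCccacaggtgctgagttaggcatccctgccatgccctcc
INSIG2, chr2:118845765-118845965: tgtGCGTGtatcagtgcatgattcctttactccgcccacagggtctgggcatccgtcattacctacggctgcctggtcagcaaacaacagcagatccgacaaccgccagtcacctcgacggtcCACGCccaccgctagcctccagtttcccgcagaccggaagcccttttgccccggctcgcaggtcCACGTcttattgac
MIR210HG, chr11:568558-568758: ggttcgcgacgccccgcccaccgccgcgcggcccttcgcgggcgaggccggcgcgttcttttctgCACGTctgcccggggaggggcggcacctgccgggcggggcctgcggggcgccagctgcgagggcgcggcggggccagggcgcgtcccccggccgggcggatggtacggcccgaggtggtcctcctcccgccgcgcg
COL5A1, chr9:137516587-137516787: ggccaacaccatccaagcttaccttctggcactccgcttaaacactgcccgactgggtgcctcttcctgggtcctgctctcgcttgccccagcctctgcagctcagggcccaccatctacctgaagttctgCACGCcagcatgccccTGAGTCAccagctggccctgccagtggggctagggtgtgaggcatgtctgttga
FOSL2, chr2:28582445-28582645: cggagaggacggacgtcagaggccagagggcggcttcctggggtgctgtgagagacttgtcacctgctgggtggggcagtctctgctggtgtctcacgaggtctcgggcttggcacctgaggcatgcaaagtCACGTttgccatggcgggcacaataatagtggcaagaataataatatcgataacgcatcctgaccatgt

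The last 2 lines show sites over 10 kb from any start site that held both an HRE core and an AP-1 motif within these bases. They are named by the nearest annotated gene, which was a lncRNA and a pseudogene.
ENSG00000287403, chr17:78830410-78830610: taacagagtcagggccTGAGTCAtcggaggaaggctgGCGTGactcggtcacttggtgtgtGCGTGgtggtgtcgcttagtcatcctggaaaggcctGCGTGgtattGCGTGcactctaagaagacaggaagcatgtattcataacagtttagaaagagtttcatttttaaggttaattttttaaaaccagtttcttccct
RPL36AP14, chr2:46460075-46460275: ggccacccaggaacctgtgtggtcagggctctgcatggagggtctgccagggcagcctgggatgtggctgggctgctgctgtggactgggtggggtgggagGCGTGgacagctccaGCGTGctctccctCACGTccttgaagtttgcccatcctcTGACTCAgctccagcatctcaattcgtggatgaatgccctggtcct

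The PGK1 site, in the gene of a glycolytic kinase, held 3 HRE cores in the 201 bases shown, the nearest 5 bases from the midpoint. The HILPDA and INSIG2 sites held 3 each, while the SLC2A1, MIR210HG, COL5A1 and FOSL2 sites held 1 each. The distal site on chromosome 17 held 4 GCGTG cores and 1 AP-1 motif. Among the 7 textbook sites, only that of COL5A1 showed an AP-1 motif in the bases printed. All 9 sites had a HIF-1β window in the control cells.

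The windows of the lists were all 2500 bp wide and carried no score, so the strength of binding and the depth of the ChIP-seq libraries are not known, and window midpoints were used in place of summits. The HIF-1α and HIF-2α windows of a shared site overlapped by a median of 2162 bases. Their midpoints lay a median of 338 bases apart, within 100 bases at 153 sites (20.6%) and within 1000 bases at 636 sites (85.6%). The 3 sites just inside the rule had 49, 101 and 102 bases in common with a HIF-2α window, and the 3 HIF-1α sites just outside it lay 66, 82 and 186 bases away from one. The sites lay on every chromosome but Y, with 74 on chromosome 1 and a single site on X, the PGK1 site. When midpoints within 10 kb of each other were joined, the 743 sites made 703 places, of which 35 held 2 or 3 sites.

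The other 5 lists, which did not choose the sites, asked whether the shared sites were also called with HIF-1β and with HIF-2α in the other pools. The rule itself, however, asked for a control HIF-2α window at the shared sites and for none at the remaining HIF-1α sites. The HIF-2α shares of these groups are therefore set side by side as a description. HIF-1β is the partner of HIF-2α, so the HIF-1β shares, above all those of the control cells, are a description too. HIF-1β was called at nearly all shared sites in the control cells, and HIF-2α was called again at most of them when it was overexpressed. After HIF-1α re-expression, HIF-1β and HIF-2α were each called at about 6 in 10. The lists differed in length, and a lower share in a pool does not show a loss of binding. A larger share of the shared sites than of both other groups had a window of every list. The exception was HIF-1β after HIF-1α re-expression, where the interval overlapped that of the remaining HIF-1α sites.

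HIF-1β of the control cells was called at 716 of the 743 shared sites, or 96.4% (94.8 to 97.5). The share was 51.0% (49.5 to 52.4) at the remaining HIF-1α sites and 78.7% (76.0 to 81.2) at the remaining endogenous HIF-2α sites, and over all 5147 HIF-1α sites it was 57.5%. HIF-1β of the HIF-2α overexpressing cells was called at 88.3% (85.8 to 90.4) of the shared sites, against 31.3% and 40.8% of the other groups and 39.5% of all HIF-1α sites. HIF-1β of the HIF-1α re-expressing cells was called at 62.4% (58.9 to 65.9) of the shared sites and at 59.4% (57.9 to 60.8) of the remaining HIF-1α sites, which overlap within counting error, and at 24.6% of the remaining HIF-2α sites (59.8% of all HIF-1α sites). The HIF-1β lists held 6572 windows in the control cells, 5807 in the re-expressing cells and 3431 in the overexpressing cells. Whether these libraries differed in depth was not tested. At least 1 pool had a HIF-1β window at 734 shared sites (98.8%), and all 3 pools at 421 (56.7%). Only 9 shared sites had no HIF-1β window in any pool, and these 9 had no window of the other HIF-2α lists either.

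HIF-2α was called again in the HIF-2α overexpressing cells at 671 shared sites, or 90.3% (88.0 to 92.2). That share was 82.4% (79.9 to 84.7) at the remaining endogenous HIF-2α sites and 21.9% (20.7 to 23.2) at the remaining HIF-1α sites, and 31.8% over all HIF-1α sites. With HIF-1α re-expressed, HIF-2α was called again at 450 shared sites, or 60.6% (57.0 to 64.0), against 38.4% (35.4 to 41.5) of the endogenous HIF-2α sites without HIF-1α and 4.18% (3.63 to 4.81) of the HIF-1α sites without endogenous HIF-2α (12.3% of all HIF-1α sites). The list of the re-expressing cells was shorter, with 1350 windows against 1719 in the control cells, and whether the libraries differed in depth was not tested. A site missing from it was not called, which is not the same as unbound. There was 1 library per list, so no p-value can be given for any comparison of peaks, and every interval covers counting error alone.

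**Figure D1:**
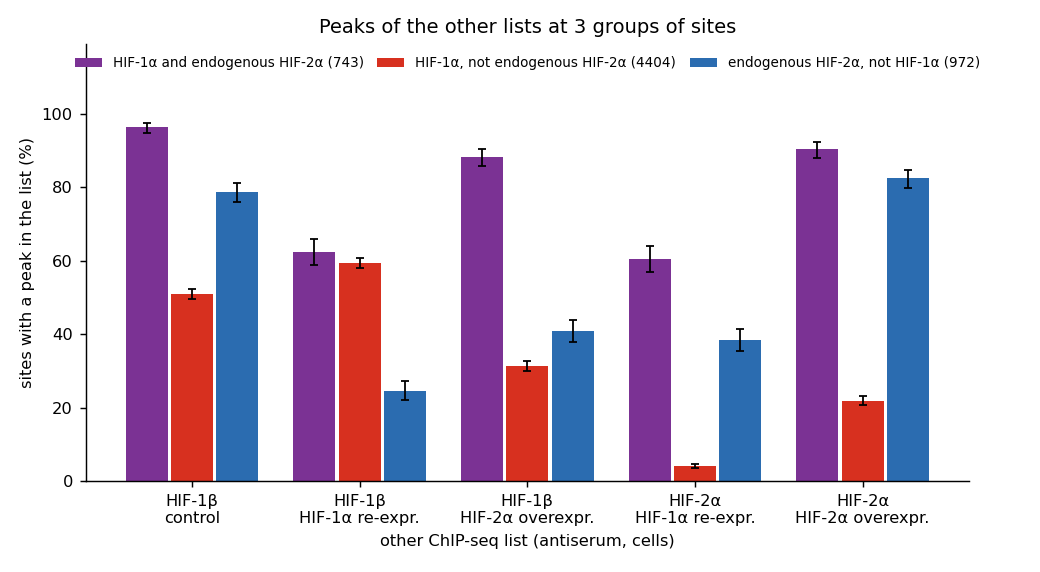
Percent of sites (y axis) with at least 1 base in common with a window of each of the 5 other ChIP-seq lists (x axis, antiserum and cells), for the 743 shared sites, the 4404 HIF-1α sites without endogenous HIF-2α and the 972 endogenous HIF-2α sites without HIF-1α. Error bars are 95% Wilson intervals. The shared sites stand highest in every list, from 60.6% to 96.4%, with the smallest margin for HIF-1β in the HIF-1α re-expressing cells (62.4% against 59.4%).

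Taken site by site, 299 shared sites (40.2%) had a window in all 5 other lists, against 0.886% of the remaining HIF-1α sites and 12.7% of the remaining HIF-2α sites. Another 125 (16.8%) lacked only HIF-1β of the re-expressing cells, 101 (13.6%) lacked only HIF-2α of the re-expressing cells, and 88 (11.8%) lacked both. The most frequent gaps were therefore in the lists of the HIF-1α re-expressing cells. Where HIF-2α was called again in those cells, HIF-1β was called at 68.9% (64.5 to 73.0) of 450 sites, and where HIF-2α was not called, at 52.6% (46.8 to 58.2) of 293.

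The position of the shared sites relative to genes lay between those of the other groups. HIF-1α sites without endogenous HIF-2α crowded onto promoters, endogenous HIF-2α sites without HIF-1α lay mostly away from them, and the shared sites were spread over both kinds of place. Of the shared sites, 449 (60.4%, 56.9 to 63.9) had a transcription start site within 5 kb, against 88.9% (88.0 to 89.8) of the remaining HIF-1α sites and 34.5% (31.5 to 37.5) of the remaining HIF-2α sites. Within 1 kb these shares were 38.2%, 80.2% and 11.5%. The median distance to the nearest start site was 2.48 kb at the shared sites, 0.179 kb at the remaining HIF-1α sites and 8.85 kb at the remaining HIF-2α sites. Introns held the midpoints of 399 shared sites (53.7%), intergenic sequence 209 (28.1%), UTRs 63 (8.48%), exons of non-coding transcripts 45 (6.06%) and coding exons 27 (3.63%). The nearest gene was protein-coding at 438 shared sites (59.0%) and a lncRNA at 212 (28.5%), against 78.4% and 16.6% at the remaining HIF-1α sites.

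**Figure D2:**
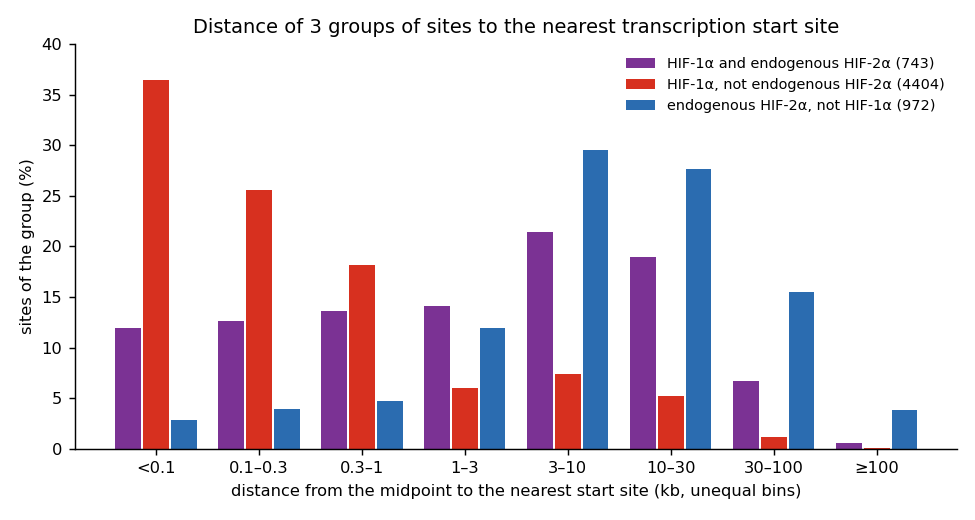
Percent of the sites in each group (y axis) by the distance from the midpoint of the site to the nearest transcription start site (x axis, kb, unequal bins). The shared sites are spread over the bins, with 12.0% under 0.1 kb and 21.4% between 3 and 10 kb, while 36.4% of the HIF-1α sites without endogenous HIF-2α lie under 0.1 kb.

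Distance to a start site and occupancy moved together, so the shares were also read within 5 kb of a start site and beyond it. HIF-1β of the control cells was called at 94.9% (92.4 to 96.6) of the 449 near shared sites and at 98.6% (96.6 to 99.5) of the 294 far ones. At the remaining HIF-1α sites it was called at 48.2% of 3916 near sites and at 72.7% of 488 far sites. The shared sites were higher at both distances, which is a description, since the rule asked for control HIF-2α at these sites alone. HIF-2α of the re-expressing cells was called at 55.5% (50.8 to 60.0) of the near shared sites and at 68.4% (62.8 to 73.4) of the far ones. The remaining endogenous HIF-2α sites had 38.2% near and 38.5% far, both lower. HIF-1β of the re-expressing cells ran the other way, with 68.4% (63.9 to 72.5) of the near shared sites and 53.4% (47.7 to 59.0) of the far ones. The remaining HIF-1α sites had 64.1% near, which overlaps the near shared sites, and 21.7% (18.3 to 25.6) far, which does not overlap the far shared sites.

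HRE cores were more frequent at the midpoint of the shared sites than beside it, as they were in both other groups. ACGTG and GCGTG were counted on both strands within 150 bases of the midpoint, with the palindrome CACGTG counted once. The midpoint was that of the HIF-1α window at shared and remaining HIF-1α sites, and of the HIF-2α window at remaining HIF-2α sites. At least 1 core was found at 441 shared sites, or 59.4% (55.8 to 62.8), and at least 2 at 218 (29.3%). In windows of the same length centred 1000 bases to the left and to the right of the same midpoints, the shares were 44.1% and 43.2%. The remaining HIF-1α sites held a core at 66.5% (65.1 to 67.8) and the remaining HIF-2α sites at 54.1% (51.0 to 57.2). As a background, 48.4% of 35116 RefSeq promoters (GRCh38.p14, 250 bases before to 50 after each gene start) held a core. Where a shared site had a core, the nearest lay a median of 50 bases from the midpoint.

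The AP-1 motif, TGACTCA or TGAGTCA, was found within 150 bases at 124 shared sites, or 16.7% (14.2 to 19.5). It was found at 6.29% (5.61 to 7.05) of the remaining HIF-1α sites and at 29.5% (26.7 to 32.5) of the remaining HIF-2α sites. Within these 150 bases the shared sites lay between the other groups, with intervals that did not overlap either. Shared sites were read around their HIF-1α midpoint, a median of 338 bases from the HIF-2α midpoint. The remaining HIF-2α sites were read around their own HIF-2α midpoint, and the part of this choice in the shares was not tested. Matches per kb were 0.70 at the midpoint of the shared sites and 1.28 at that of the remaining HIF-2α sites. Away from the midpoint they were 0.57 and 0.64 at -200 bases, and 0.73 and 0.58 at 200 bases. The order of these groups thus depended on the distance. In the windows 1000 bases to the left and right it was found at 6.59% and 7.13% of the shared sites, and in 4.95% of RefSeq promoters. Within 5 kb of a start site the shares were 14.0% (11.1 to 17.5) of the shared sites, 4.75% of the remaining HIF-1α sites and 30.1% of the remaining HIF-2α sites. Beyond 5 kb they were 20.7% (16.5 to 25.7), 18.6% (15.4 to 22.3) and 29.2%, and there the shared sites and the remaining HIF-1α sites overlapped within counting error. Both motifs were found at 76 shared sites (10.2%) and neither at 254 (34.2%).

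**Figure D3:**
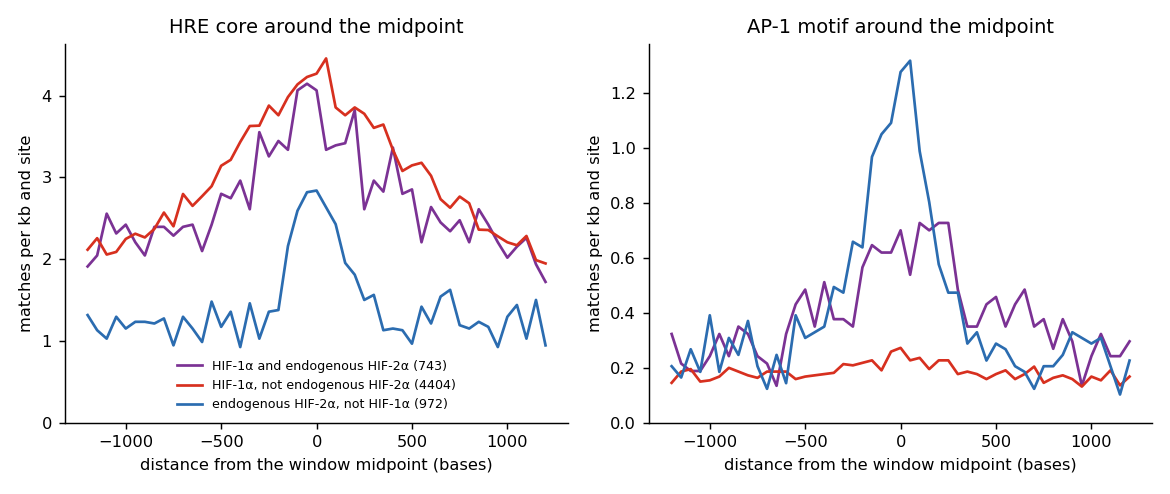
Matches of the HRE core (left) and of the AP-1 motif (right) per kb and site (y axis) against the distance from the window midpoint in bases (x axis), in bins along the window, for the 3 groups of sites. Around the shared sites the HRE core rises from 1.91 matches per kb at -1200 bases to 4.06 at the midpoint. The AP-1 line of the shared sites lies between the others at the midpoint. It has 0.70 matches per kb there, against 0.27 at the remaining HIF-1α sites and 1.28 at the remaining HIF-2α sites.

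The base before the core and the base composition also differed between the groups. Of all cores at the shared sites, 42.7% read ACGTG, against 31.6% at the remaining HIF-1α sites and 61.7% at the remaining HIF-2α sites. TACGTG was found at 12.0% of the shared sites, 6.40% of the remaining HIF-1α sites and 18.9% of the remaining HIF-2α sites, while CGCGTG was found at 8.61%, 18.7% and 1.85%. The median GC content within 150 bases was 56.8% at the shared sites, 66.4% at the remaining HIF-1α sites and 46.2% at the remaining HIF-2α sites, with a median of 8, 25 and 4 CpG dinucleotides. GC content moved with the reading of the core, and its part in these shares was not tested.

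The shared sites named 671 different nearest genes, of which 60 had at least 2 sites and 12 had 3. The genes with 3 sites that were tested for expression were PFKP, a glycolytic phosphofructokinase, COL5A1, ZNF395, TGM2, SYNJ2, ERGIC1, DNAJB12 and RAB40C. Of the 671 genes, 417 were in the count table, 29 of these fell under the filter on low counts, and 388 were tested, belonging to 441 of the 743 sites. The other 254 were not matched to a gene of the table.

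Nothing in the labels says whether the 3 RNA libraries of a pool came from separate cultures, so the p-values below may measure technical spread alone, and in bulk RNA fewer cells of a kind cannot be told apart from less RNA per cell. The RNA-seq libraries held between 27852754 and 54287621 counts. Values of CPM (read counts of a gene divided by the scaled library total in units of 1e6) for HIF1A were 30.4, 36.7 and 152 in the control cells, 171, 1682 and 473 after HIF-1α re-expression, and 15.3, 30.4 and 17.5 after HIF-2α overexpression, with reads of virus and endogenous gene not told apart. CPM of EPAS1, which encodes HIF-2α, were 456, 224 and 162 in the control cells, 575, 627 and 397 in the re-expressing cells and 946, 3244 and 879.8 in the overexpressing cells, and ARNT ranged from 33.1 to 69.9 in all 9. The renal lineage markers PAX8, PAX2 and CDH6 and the line's markers VIM, KRT8 and KRT18 were each at 8.53 CPM or more in every library, and the proximal tubule receptors LRP2 and CUBN at 3.36 CPM at most. PTPRC, PECAM1, ALB and DES, which mark leukocytes, endothelium, hepatocytes and muscle, did not exceed 0.838 CPM. Libraries of the same replicate number deviated together in all pools, so the replicate number also entered as a block, and both fits are given.

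Re-expression of HIF-1α asked whether genes at sites that endogenous HIF-2α already bound would respond to HIF-1α as well. Without the block, edgeR called none of the 388 nearest genes at an adjusted p under 0.05, and none of the 14225 genes tested (0.0% higher and 0.0% lower), while the unadjusted p was under 0.05 for 56 of the 388 (14.4%) that were higher and 22 (5.67%) that were lower, beside 11.1% and 8.23% of all genes. With the replicate block, 34 of the 388 nearest genes (8.76%) were higher and 9 (2.32%) lower, beside 5.41% higher and 2.55% lower of all genes tested. DESeq2 without a block called 27 higher and 3 lower, beside 3.43% and 1.95% of all genes. The median log2 fold change of the 388 genes was 0.16 without the block and 0.10 with it, beside 0.04 over all genes in both fits. The medians of the 388 genes in the 3 replicate pairs were -0.01, 0.27 and 0.10, against 0.02, 0.00 and 0.07 over all genes, so the first pair did not show the shift. Without the libraries of replicate 2 edgeR with the block called 0 of the nearest genes and 0.0% of all genes, with 51 (13.1%) higher and 29 (7.47%) lower by the unadjusted p beside 11.5% and 7.41% of all genes. Without replicate 3 it called 0, beside 0.00706% higher and 0.0% lower of all genes, with 65 (16.8%) higher and 37 (9.54%) lower beside 11.3% and 8.59%, and without replicate 1 it called 17 higher and 1 lower beside 1.75% and 0.307% of all genes by the adjusted p.

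The genes named next had the largest changes among those called with the block, with at least 5 CPM in the higher pool and the same direction in all 3 pairs. Each comparison was fitted 17 times over the alternatives, and the calls of single genes given below with the block passed in 1 to 6 of these fits. ZP1, a zona pellucida glycoprotein with a shared site 0.257 kb from its start, had 0.129, 0.284 and 3.31 CPM in the control cells against 0.833, 11.0 and 11.4 in the HIF-1α re-expressing cells. It was higher in each pair, with overlapping groups, and rose by 3.11 on the log2 scale (standard error 0.71, adjusted p = 0.0415 from edgeR with the replicate block). ZP1 passed in 1 of the fits, and its log2 fold change ran from 1.98 with the block without replicate 2 to 5.21 without control replicate 3 and without the block (adjusted p = 0.188 and 0.307 from edgeR). ARID3A, a DNA-binding transcription factor, had 2.85, 2.39 and 0.990 CPM in the control cells against 6.30, 16.7 and 5.01 after HIF-1α. These groups did not overlap, and ARID3A rose by 2.11 on the log2 scale (standard error 0.36, adjusted p = 0.0315 from edgeR with the block and 0.0206 from DESeq2).

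PTGS1, which encodes cyclooxygenase 1 of prostaglandin synthesis, had 11.0, 4.49 and 10.4 CPM in the control cells and 19.7, 16.3 and 76.1 after HIF-1α, again without overlap and with replicate 3 far above the others. Its log2 fold change was 1.89 with the block and 1.06 without HIF-1α replicate 3 and without the block (adjusted p = 0.0439 and 0.372 from edgeR). LAMA5, a basement membrane laminin chain with a site 2.13 kb upstream, had 4.55, 8.88 and 31.4 CPM against 11.6, 28.6 and 176. The groups overlapped although LAMA5 was higher in each pair, and its log2 fold change of 1.81 passed the threshold with the block (adjusted p = 0.0354 from edgeR with the block, 0.330 from DESeq2). Without the block it was 0.43 when HIF-1α replicate 3 was left out and 3.42 when control replicate 3 was left out (adjusted p = 0.897 and 0.368 from edgeR). PPP1R3C, the subunit that targets protein phosphatase 1 to glycogen, had 5.87, 6.77 and 9.33 CPM in the control cells against 9.76, 43.1 and 32.6 after HIF-1α. The groups did not overlap, and it rose by 1.80 on the log2 scale (standard error 0.35, adjusted p = 0.0357 from edgeR with the block and 0.00476 from DESeq2). Its site, 0.221 kb upstream of the start, held 3 HRE cores.

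Among the genes that fell, CD70, a ligand of the TNF family with a site 2.23 kb inside the gene, went from 234, 329 and 418 CPM in the control cells to 116, 156 and 156 after HIF-1α. All 3 re-expressing libraries lay below all 3 control libraries, and CD70 fell by 1.17 on the log2 scale (standard error 0.19, adjusted p = 0.0308 from edgeR with the block). GAL3ST1, the sulfotransferase that makes sulfatide, had 121, 314 and 579.6 CPM in the control cells and 49.8, 176 and 239 after HIF-1α. It was lower in each pair although the groups overlapped (log2 fold change -1.14, adjusted p = 0.0315 from edgeR with the block), and without control replicate 3 and without the block the log2 fold change was -0.50 (adjusted p = 0.761 from edgeR). TFAP4, a basic helix-loop-helix factor, went from 19.8, 22.2 and 28.1 to 15.0, 11.8 and 10.4 CPM without overlap (log2 fold change -0.93, adjusted p = 0.0452 from edgeR with the block).

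Overexpression of HIF-2α raised the isoform that already occupied these sites, and few of the nearest genes passed a test. Without the block, edgeR called none of the 388 nearest genes and none of all genes (0.0% in each direction), and 35 of the 388 (9.02%) had an unadjusted p under 0.05 with a higher value and 12 (3.09%) with a lower, beside 3.35% and 2.54% of all genes. With the block it called 2 higher and 3 lower, beside 0.112% and 0.155% of all genes tested, and DESeq2 called 7 higher and 4 lower, beside 0.246% and 0.176%. The median log2 fold change of the 388 genes was 0.09 without the block and 0.11 with it, beside -0.02 and -0.01 over all genes. Both this comparison and that of HIF-1α used the same 3 control libraries.

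EGLN3, an oxygen-sensing prolyl hydroxylase that acts on HIF-α, had 128, 205 and 171 CPM in the control cells, 356, 912 and 650.4 after HIF-2α and 78.4, 325 and 139 after HIF-1α. It rose by 1.83 on the log2 scale after HIF-2α (standard error 0.26, adjusted p = 0.0372 from edgeR with the block), and after HIF-1α its log2 fold change was -0.11 (adjusted p = 0.782 from edgeR with the block). Its site, 7.37 kb from the start, held no HRE core within 150 bases but 1 AP-1 motif, and had windows in all 5 other lists.

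The 3 genes that fell after HIF-2α were an extracellular protease, an orphan receptor and a WNT ligand. ADAMTS15, the protease, had 2.59, 6.003 and 12.7 CPM in the control cells and 0.265, 0.105 and 1.26 after HIF-2α, and fell by 3.88 on the log2 scale (standard error 0.42, adjusted p = 0.0135 from edgeR with the block). GPRC5C, the receptor, had 28.6, 4.07 and 38.7 CPM in the control cells and 2.21, 0.488 and 1.95 after HIF-2α (log2 fold change -3.75, adjusted p = 0.00635 from edgeR with the block). WNT7B, which had 2 shared sites, went from 39.0, 31.9 and 72.5 CPM to 6.67, 11.5 and 15.4 (log2 fold change -2.07, adjusted p = 0.0372 from edgeR with the block). None of the 3 genes had overlapping groups.

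Setting the HIF-1α re-expressing cells directly against the HIF-2α overexpressing cells asked which genes at shared sites differed between these pools. Both pools also make endogenous HIF-2α, so the isoform and the amount of HIF-2α cannot be told apart. Below, a difference between the isoforms means a difference between these pools. Without the block, edgeR called none of the 388 nearest genes, beside 0.0281% higher and 0.0211% lower of all genes. By the unadjusted p, 43 (11.1%) were higher and 27 (6.96%) lower, beside 9.04% and 4.6% of all genes. With the block it called 28 higher (7.22%) and 17 lower (4.38%), beside 4.54% and 1.38% of all genes, and DESeq2 called 17 higher and 12 lower, beside 3.27% and 0.97%. The median log2 difference was 0.07 without the block and 0.05 with it, beside 0.02 over all genes in both.

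ADAMTS15 differed most between the isoforms, with 8.14, 9.95 and 40.9 CPM in the re-expressing cells against the overexpressing values above (log2 difference 5.20, standard error 0.43, adjusted p = 0.00108 from edgeR with the block). ZP1 had a log2 difference of 4.58 and GPRC5C of 4.34 (adjusted p = 0.0140 and 0.00108 from edgeR with the block). KCNIP1, a potassium channel interacting protein, had 6.86, 3.75 and 15.7 CPM in the re-expressing cells and 0.554, 0.558 and 0.925 in the overexpressing cells, and SYT12, a synaptotagmin, had 20.5, 13.9 and 94.4 against 1.54, 1.92 and 14.8. The groups of KCNIP1 did not overlap, those of SYT12 did, and their log2 differences were 3.51 and 3.10 (adjusted p = 0.00273 and 0.00234 from edgeR with the block). Without the block, the difference of SYT12 was 1.49 when HIF-1α replicate 3 was left out and 4.60 when HIF-2α replicate 3 was left out (adjusted p = 0.816 and 0.357 from edgeR).

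On the lower side, SCARB1, the receptor for high density lipoprotein, had 212, 206 and 122 CPM in the re-expressing cells, 493, 990.5 and 675 in the overexpressing cells, with 417, 254 and 251 in the controls. Its log2 difference between the isoforms was -2.03 (standard error 0.31, adjusted p = 0.00836 from edgeR with the block), and its values in the control cells lay between those of the other pools without overlap. EGLN3 was also lower after HIF-1α than after HIF-2α (log2 difference -1.94, adjusted p = 0.00515 from edgeR with the block).

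**Figure D4:**
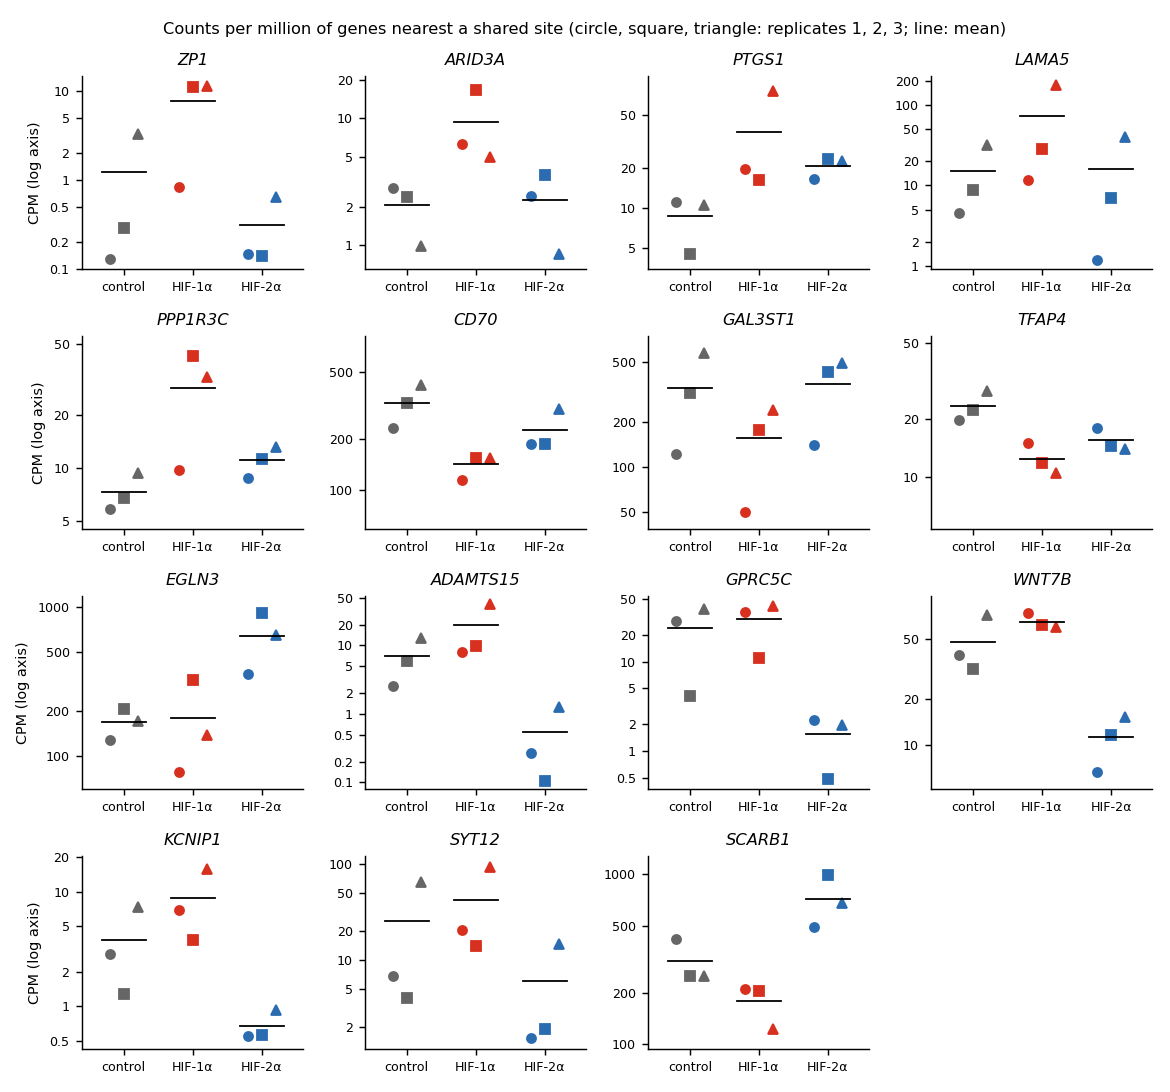
CPM on a log axis (y axis) for 15 genes nearest a shared site, in the control, HIF-1α re-expressing and HIF-2α overexpressing cells (x axis). Each point is 1 library, with circles, squares and triangles for replicates 1, 2 and 3, and the black line is the mean of the 3. EGLN3 is highest in the HIF-2α overexpressing cells, and ADAMTS15, GPRC5C and WNT7B are lowest there without overlap with the other pools.

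The nearest genes were also counted by what else was called at the site, with the block. For the 267 nearest genes with a site where HIF-1β was also called in the re-expressing cells, the median log2 fold change after HIF-1α was 0.20, and 27 (10.1%) were higher and 5 (1.87%) lower. For the 121 others it was -0.01, with 7 (5.79%) higher and 4 (3.31%) lower, close to the 5.41% and 2.55% of all genes tested. After HIF-2α the same split gave medians of 0.15 and -0.05. Between the isoforms, where 4.54% of all genes were higher and 1.38% lower, 16 of the 219 nearest genes at sites where HIF-2α was called again in the re-expressing cells (7.31%) were higher after HIF-1α and 16 were lower. At the 169 others 12 (7.10%) were higher and 1 (0.592%) was lower. Of the 286 genes with a site within 5 kb, 23 (8.04%) were higher and 7 (2.45%) lower. Of the 102 with a site farther away 5 (4.90%), close to the share of all genes, were higher and 10 (9.80%) lower. These splits were counted without a test of the difference.

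The pathway around the sites was read from 9 lists of textbook genes with 101 members. A shared site was nearest to 43 of them and lay within 10 kb of 6 more, and all of these 49 were tested for expression. Without the block edgeR called none of the 49 in any comparison, while at an unadjusted p under 0.05 it had 19 higher after HIF-1α, 9 higher after HIF-2α, and 10 higher and 5 lower between the isoforms, beside 11.1%, 3.35%, 9.04% and 4.6% of all genes. With it, 9 of the 49 were higher and 0 lower after HIF-1α, beside 5.41% and 2.55% of all genes, and 2 higher and 0 lower after HIF-2α, beside 0.112% and 0.155%. Between the isoforms 5 were higher and 3 lower after HIF-1α, beside 4.54% and 1.38%. The median log2 fold change of the 49 with the block was 0.50 after HIF-1α and 0.32 after HIF-2α, beside 0.04 and -0.01 over all genes. The members of the lists without a shared site were not set beside these 49. Whether the shift goes with the shared sites or with textbook HIF targets in general was not tested. The 9 calls after HIF-1α were lost in the fits without replicate 2 and without replicate 3.

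Glucose uptake and glycolysis had 16 of 22 genes with a shared site, from the transporter SLC2A1 and the hexokinases HK1 and HK2 through PFKL, PFKP, PFKFB4, ALDOA, TPI1, GAPDH, PGK1, PGAM1, ENO1 and PKM to LDHA, PDK1 and the lactate exporter SLC16A3. Nearly all of these sites were close to a start, 0.01 kb from that of PFKP, 0.042 kb from those of ALDOA and TPI1 and 0.195 kb from that of PGK1, while the HK2 site lay beyond 10 kb. None of the 16 passed the threshold after HIF-1α or after HIF-2α in either edgeR fit. With the block, 4 were higher at an unadjusted p under 0.05 after HIF-1α and 2 after HIF-2α, beside 18.7% and 7.69% of all genes, and DESeq2 called HK2 after HIF-1α and SLC2A1 after HIF-2α. After HIF-1α 9 of the 16 had a log2 fold change above 0, with a median of 0.19, and after HIF-2α 6 of 16, with a median of -0.24.

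All 16 had their highest HIF-1α value in replicate 2, the library with the highest CPM of HIF1A, whereas 28.2% of all genes tested did. The amount of HIF1A and whatever else the replicate number shares cannot be told apart in a single library. PGK1 had 612, 776 and 795 CPM in the control cells and 742, 3104 and 906 after HIF-1α, and LDHA 1526, 2614 and 2952 against 1599, 3548 and 1307. PFKFB4, which sets the level of the allosteric activator fructose 2,6-bisphosphate, had 28.0, 37.7 and 14.6 CPM in the control cells, 32.4, 184 and 34.9 after HIF-1α and 18.1, 29.4 and 11.4 after HIF-2α. It differed between the isoforms by 1.78 on the log2 scale (standard error 0.35, adjusted p = 0.0224 from edgeR with the block), or by 0.74 without HIF-1α replicate 2 and without the block (adjusted p = 0.551 from edgeR), and had a log2 fold change of 1.32 against the control cells (adjusted p = 0.0517 from edgeR with the block). SLC2A1 ran the other way, with 1264, 995 and 944 CPM in the control cells, 1062, 1505 and 1095 after HIF-1α and 1591, 2959 and 2403 after HIF-2α, where all 3 libraries were above all others (log2 fold change 1.08, adjusted p = 0.140 from edgeR with the block and 0.0476 from DESeq2). Several glycolytic genes, among them PGK1, GAPDH, LDHA and ENO1, have processed pseudogenes, and their counts rest on uniquely mapped fragments.

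Mitochondria and mitophagy had 2 of 6 genes near a site, BNIP3 and NDUFA4L2. BNIP3, a mitophagy receptor, had 100.4, 97.4 and 122 CPM in the control cells, 202, 818 and 203 after HIF-1α and 85.2, 56.8 and 61.7 after HIF-2α, with no overlap between any of the pools. It differed between the isoforms by 2.36 on the log2 scale (standard error 0.50, adjusted p = 0.0273 from edgeR with the block), or by 1.46 when replicate 2 was left out (adjusted p = 0.0309 from edgeR with the block), and against the control cells by 1.72 (adjusted p = 0.0575 from edgeR with the block, 0.00782 from DESeq2). NDUFA4L2, an NDUFA4-like mitochondrial protein, was at 2.12 CPM or less in every library.

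Growth and cell cycle had 4 of 8 genes near a site, of which 2 were higher after HIF-1α with the block. EGFR, the epidermal growth factor receptor, had 125, 90.6 and 38.1 CPM in the control cells, 301, 251 and 209 after HIF-1α and 152, 372 and 134 after HIF-2α. Both pools lay above the control cells, with log2 fold changes of 1.71 and 1.40 (adjusted p = 0.0366 and 0.160 from edgeR with the block). MXI1, an antagonist of MYC, had 27.0, 28.9 and 34.4 CPM in the control cells and 37.6, 142 and 88.9 after HIF-1α, without overlap (log2 fold change 1.37, adjusted p = 0.0389 from edgeR with the block, and 0.89 and 0.212 without replicate 2). CDKN1A and CDKN1B, inhibitors of cyclin-dependent kinases, had log2 fold changes of -0.65 and 0.27 that did not pass.

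Matrix genes had 4 of 7 near a site, P4HA1, PLOD2, LOXL2 and COL5A1. P4HA1, a collagen prolyl hydroxylase, had 304, 179 and 186 CPM in the control cells, 452, 561 and 334 after HIF-1α and 421, 504 and 389.8 after HIF-2α. Both pools were above the control cells by close to the same amount, 1.01 and 0.99 on the log2 scale, of which the first passed the threshold (adjusted p = 0.0426 and 0.143 from edgeR with the block). PLOD2, a collagen lysyl hydroxylase, had log2 fold changes of 0.81 and 1.24 (adjusted p = 0.0535 and 0.0633 from edgeR with the block). COL5A1, with 3 shared sites, was almost silent, at 0.103, 0.114 and 0.104 CPM in the control cells and 0.539, 0.354 and 5.29 after HIF-1α, so its call (log2 fold change 3.57, adjusted p = 0.0459 from edgeR with the block) rests mostly on replicate 3, without which the log2 fold change was 2.01 (adjusted p = 0.221 from edgeR with the block).

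Transcription and chromatin had 5 of 12 genes near a site. KDM3A, a histone demethylase, had 48.4, 49.1 and 26.7 CPM in the control cells and 67.4, 101 and 63.9 after HIF-1α, without overlap, and was the single member called (log2 fold change 0.91, adjusted p = 0.0371 from edgeR with the block). All 5 members, KDM3A, KDM4B, BHLHE40, KLF10 and ZNF395, had log2 fold changes above 0 in both comparisons with the control cells. Of the 8 tested genes with 3 shared sites, COL5A1 was called after HIF-1α and between the isoforms, and DNAJB12, a chaperone of the endoplasmic reticulum, between the isoforms. DNAJB12 had 109.8, 87.4 and 64.9 CPM after HIF-1α and 143, 157 and 228 after HIF-2α (log2 difference -1.02, adjusted p = 0.0483 from edgeR with the block, and -0.63 and 0.231 without replicate 3).

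Oxygen sensing and feedback had 2 of 10 genes near a site, EGLN3 and CITED2, and angiogenic and vascular genes 3 of 8, among them ADM and ANGPTL4. CITED2, which competes with HIF-α for the coactivator p300, had log2 fold changes of 0.17 after HIF-1α and -0.58 after HIF-2α, and neither passed. ADM and ANGPTL4, which encode a vasodilator peptide and a regulator of lipoprotein lipase, had log2 fold changes of 0.38 and 0.47 after HIF-1α and of 0.65 and 0.87 after HIF-2α, without a call.

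The list of other textbook targets had 9 of 21 genes near a site and 3 calls after HIF-1α, PPP1R3C, GBE1 and MIR210HG. GBE1, the glycogen branching enzyme, had 61.7, 113 and 110.1 CPM in the control cells, 121, 316 and 180.1 after HIF-1α and 68.3, 75.4 and 108 after HIF-2α, so every HIF-1α library lay above all others. Its log2 fold change against the control cells was 1.08, and its difference from the overexpressing cells 1.20 (adjusted p = 0.0426 and 0.0282 from edgeR with the block). The first was 0.64 without HIF-1α replicate 2 and without the block, and the second 0.77 with the block without replicate 2 (adjusted p = 0.397 and 0.160 from edgeR). MIR210HG had 5.43, 7.94 and 9.38 CPM in the control cells and 11.2, 41.1 and 17.9 after HIF-1α, without overlap (log2 fold change 1.45, adjusted p = 0.0366 from edgeR with the block), or 0.91 without HIF-1α replicate 2 and without the block (adjusted p = 0.334 from edgeR).

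PLIN2, a lipid droplet coat protein, went the other way between the isoforms, with 455, 574 and 417 CPM after HIF-1α and 732, 1502 and 1229 after HIF-2α (log2 difference -1.25, adjusted p = 0.0274 from edgeR with the block). HILPDA and INSIG2, whose cores are printed above, had log2 fold changes of 1.21 and 1.36 after HIF-1α (adjusted p = 0.0925 and 0.0553 from edgeR with the block). CA12, DDIT4 and STC2 had no call in any comparison.

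Among the AP-1 subunits, 4 of 7 had a shared site, JUN, JUNB, FOSL1 and FOSL2. FOSL2 had 124, 137 and 102 CPM in the control cells, 153, 259 and 289 after HIF-1α and 125, 139 and 148 after HIF-2α, and rose by 0.91 on the log2 scale after HIF-1α (standard error 0.23, adjusted p = 0.0455 from edgeR with the block), or by 0.60 without replicate 3 (adjusted p = 0.212 from edgeR with the block). Its site lies 32.8 kb from the start and is printed above with its CACGT. JUN, JUNB and FOSL1 had log2 fold changes of 0.50, 0.47 and -0.17 after HIF-1α and did not pass in any comparison.

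**Figure D5:**
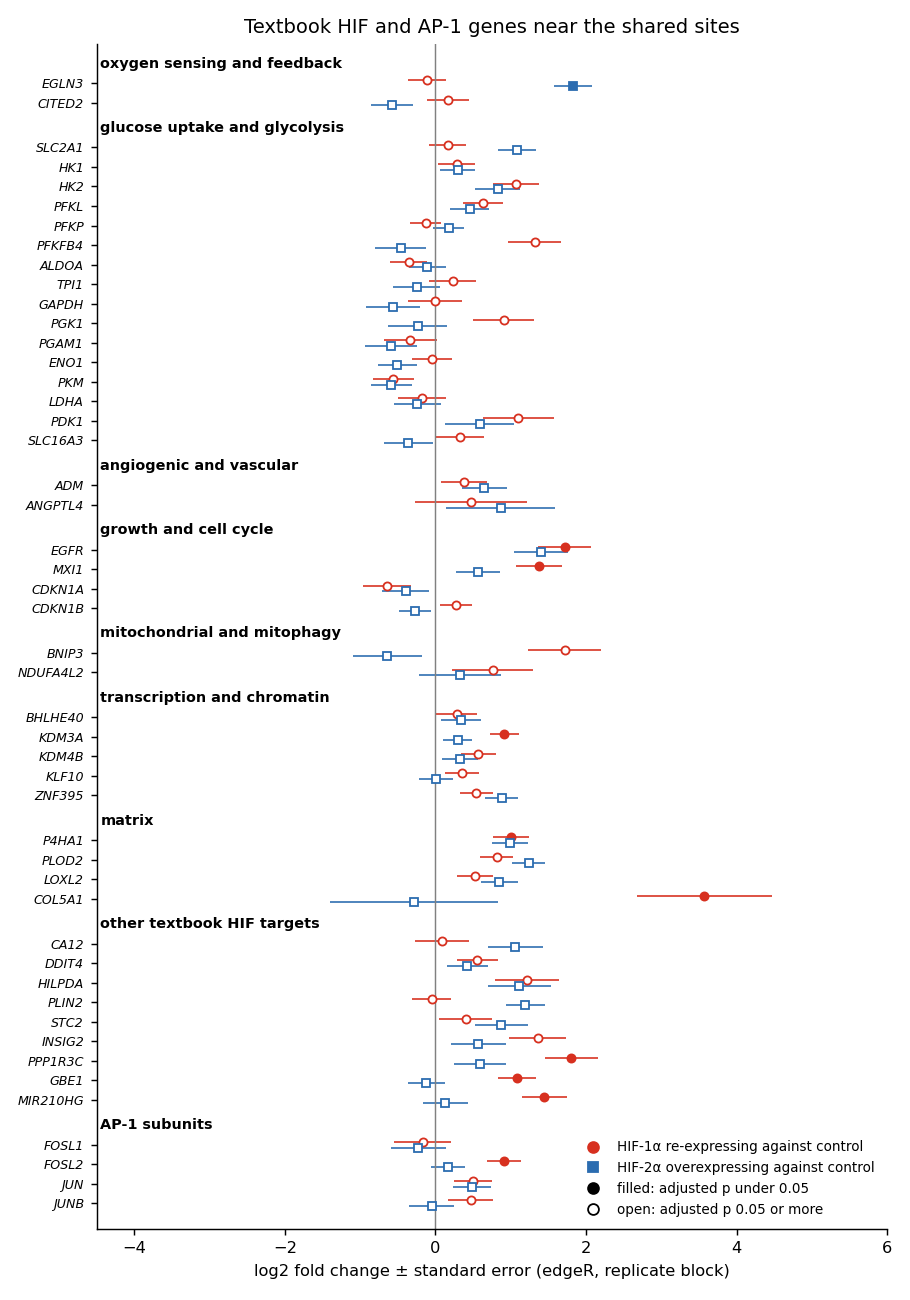
Log2 fold change with its standard error (x axis) from edgeR with the replicate block for 48 textbook genes near a shared site (y axis, grouped by list), after HIF-1α re-expression (circles) and HIF-2α overexpression (squares) against the control cells. Filled symbols have an adjusted p under 0.05. The 9 filled circles lie above 0, as does the single filled square, that of EGLN3.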

How the data were processed

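ChIP-seq peak lists and RNA-seq gene counts of 786-O pools were analysed. Per the submitters' processing notes, the authors trimmed ChIP reads with Trim Galore 0.3.3, aligned them to GRCh37 with BWA 0.7.5a-r405, and called peaks with T-PIC and MACS, filtered on total reads under a peak. The deposited lists held chromosome, start and end in other columns without a score. For expression, the deposited values were raw counts by gene symbol, which the authors made with TopHat 2.0.8b with Bowtie 1.0.0 and HTSeq 0.5.4p3 on UCSC genes, and whether strand was used is not given in the sources used here.

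The shared sites, gene lists and tests were chosen with earlier results of these data known. Sites were overlapped by 1 base or more, and placed with GENCODE start sites of GRCh37. Wilson intervals were at 95% and cover counting error alone. Of 23441 gene symbols, 20654 matched a GENCODE symbol, 1399 an older symbol of a single gene in RefSeq (GRCh38.p14 table), and 1388 none.

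Counts of all 9 libraries were filtered on low values, scaled by TMM and tested over 14225 genes with edgeR 4.0.16 (quasi-likelihood, Benjamini-Hochberg adjusted p under 0.05), without and with the replicate number as a block, and with DESeq2 1.42.0. Where DESeq2 gave no adjusted p, the gene was not called. The labels do not say what a replicate number shares. Deviations from the pool means correlated at 0.385 to 0.647 over the 9 library pairs sharing a number and at -0.436 to 0.0190 over the 18 with different numbers. Each pool mean included the library itself, so these ranges are not independent, and high values in the first lower the second. The numbers were taken to pair the libraries. The fit was tested on simulated data.

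Named genes were members of 9 lists with a shared site nearest to them or within 10 kb, genes with 3 shared sites, and, for each RNA comparison, the 5 largest rises and 3 largest falls called with the block, with at least 5 CPM in the higher pool and the same direction in all 3 pairs. Some genes and sequences that met these rules are not reported here, though counts over the lists include them. Values of the study's own comparisons were not used.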

Additional observations from a re-analysis of the deposited data

How the results depend on the processing

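The shared sites were 14.4% of the HIF-1α sites, 13.0% when 50% of the window had to overlap and 5.96% when midpoints had to lie within 250 bases. With 50% overlap asked of the other lists, HIF-1β was called at 89.2% of shared sites in the control cells, 57.2% in the re-expressing cells and 82.2% in the overexpressing cells, and HIF-2α at 56.1% and 84.3% in the re-expressing and overexpressing cells. The share within 5 kb of a start site was 46.4% with protein-coding starts and 43.2% with 1 start per gene. Within 75 and 500 bases of the midpoint, HRE cores were found at 38.6% and 93.3% and AP-1 motifs at 8.75% and 37.1% of shared sites. With the replicate block, which the paired replicate numbers allow, 43, 5 and 45 nearest genes were called for HIF-1α against control, HIF-2α against control and HIF-1α against HIF-2α, and with DESeq2 30, 11 and 29, where edgeR without the block called 0. Without the filter on low counts it called 6 between the isoforms. Leaving out 1 library without the block, edgeR called 0 in both comparisons with the control cells (56 higher and 22 lower, and 35 and 12, by the unadjusted p with all libraries) and from 0 through 1 to 2 between the isoforms, and the medians ran from 0.057 to 0.17, 0.042 to 0.13 and -0.047 to 0.080. Leaving out a replicate number with the block, the calls ran from 0 to 18, from 1 to 3 and, between the isoforms, 18, 19 and 24, and the medians from 0.011 to 0.21, 0.0036 to 0.19 and -0.040 to 0.092. The cause of these differences was not tested. The lists give no depth or score, so a site outside a list may have fallen under its threshold, and 1 library per list leaves the spread between ChIP-seq replicates unknown.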
